A study of Drosophila melanogaster with 7 samples.

Results

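The vacuolar proton pump genes described here are 10 named subunit genes of Drosophila melanogaster: Vha36-1, Vha36-2, Vha26, Vha55, Vha68-1, Vha68-2, Vha100-1, Vha100-2, Vha16-1 and Vha44. They were chosen by name with results of these same arrays known, and a clone counted as theirs when the platform annotation gave it a single gene and that gene was on the list. By this rule 8 of 10227 cDNA features (printed clone spots) belonged to 7 of the 10 genes, out of 7583 genes with a clone of their own. Vha68-1 and Vha68-2 had no feature. Vha16-1 was annotated only to a clone shared with CRMP, which is given below but not counted.

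The vacuolar proton pump, or V-ATPase, is a rotary machine that uses ATP to move protons across membranes. Its V1 sector lies in the cytoplasm and splits ATP, and a central shaft passes the rotation to the V0 sector in the membrane, through which the protons travel. The pump acidifies lysosomes, endosomes and synaptic vesicles, and in insects it also energizes transport across the plasma membrane of epithelia such as the Malpighian tubule. Several subunits in the fly are encoded by more than 1 gene, so that related genes can supply the same place in the pump.

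Whole embryos aged from 10 to 12 hours were compared. Mutants were homozygous for lolaORE76, a null allele with a stop codon in the region shared by all isoforms of the transcription factor Lola, and also carried sca-GAL4 and UAS-tau-eGFP in a w1118 background. Controls had the same driver, reporter and background without the lola allele, and both were sorted by hand for GFP in the nervous system, which marks the genotype and does not restrict the RNA to neurons. Each of 7 independently collected RNA pairs, from about 300 embryos per sample, was hybridized to 1 array with 2 colors. The mutant sample was labeled with Cy5 on arrays 1, 3 and 6 and its control with Cy3, and on the remaining 4 the labels were the other way round. The mutant chromosome was built by recombination, so other differences on it cannot be told apart from loss of lola, and the embryos also hold Lola from the mother.

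All values are log2 ratios of mutant over control, 1 per array, so a value of 1 is a doubling and 0 is no difference. The table does not state its direction, and mutant over control is the likely one: as deposited, 596 of 596 clones of the study's list that were found here had the opposite sign, and every sign was turned. Clones of lola itself had means of 0.65 ± 0.35 (GM09276; SD, n = 7), 0.34 ± 0.15 (GH08307), 0.10 ± 0.22 (LD28033) and 0.01 ± 0.16 (LD17006). A stop codon need not lower the transcript, so these ratios do not check the labels. The SD over all features was larger on array 6, at 0.43, than on the others, at 0.29 to 0.34. Its interquartile range of 0.34 lay within that of the others, at 0.31 to 0.35. Spot brightness was not used here, so levels could not be compared between genes, and the tissue could not be checked from marker levels. In RNA of whole embryos, fewer cells of a type and less RNA per cell cannot be told apart.

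Of the 8 features, 2 were higher in the mutant at an adjusted p under 0.05 and 0 were lower. The same test called 6.11% of all 10227 features, 3.59% higher and 2.52% lower. The genes were chosen with results of these ratios known, so the 2 calls describe the members and say nothing of the pump as a whole. Both features are a single clone of a single gene, Vha36-2 in the V1 sector and Vha100-2 in the V0 sector. The median over the 7 genes was 0.03, and 0.12 without array 6, against -0.02 over all 7583 genes on all arrays, and 5 of the 7 had a mean above 0, against 44.9% of all genes. Each p below is from limma's moderated test across all features, two-sided, with Benjamini-Hochberg adjustment over all of them.

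Vha36-2 encodes a form of subunit D, which forms the central shaft between V1 and V0. Its clone AT31643 had the ratios 0.66, 1.22, 0.68, 1.25, 1.12, 2.57 and 1.11 on arrays 1 to 7. The mutant was higher on every array, and even the lowest array, array 1, lay above the highest value of any other named gene on any array. The mean was 1.23 ± 0.64 (SD, n = 7), a 2.35-fold difference with a 95% interval of 1.73 to 3.18-fold (adjusted p = 0.00676). By its mean the clone ranked 17 from the top among 10227 features.

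Array 6 stood apart from the rest for Vha36-2. Its value of 2.57 was the fourth highest of all features on that array, rank 4 of 10227, while the other 6 arrays lay between 0.66 and 1.25. Without array 6 the mean was 1.01 ± 0.27 (n = 6), 2.01-fold, and the adjusted p was 0.00128, in a fit that called 7.58% of all features. The call thus held without the array that raised the mean, and it held on leaving out each array in turn, with adjusted p from 0.00128 to 0.0315.

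The other arrays of Vha36-2 fell into a pair of levels that followed the dye. The 4 arrays with mutant RNA in Cy3 lay close together, from 1.11 to 1.25 with a mean of 1.18 (adjusted p = 0.000555 on these arrays alone, where 24.5% of all features were called). Arrays 1 and 3, with mutant RNA in Cy5, were lower, at a mean of 0.67, and array 6, also Cy5, was above them all. With all arrays the dye term had an adjusted p of 0.881, and 11.5% of all features had one under 0.05. Without array 6 it was 0.00744, where 22.7% of all features passed, and the mutant was higher in both orientations. The size of the difference therefore depended on the arrays taken, and its direction did not.

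Vha100-2 encodes a form of subunit a, the membrane subunit beside the proteolipid ring that provides the path for protons. Its clone LD21735 had the ratios 0.20, 0.36, 0.45, 0.48, 0.37, 0.14 and 0.36 on arrays 1 to 7. All were above 0 and array 6 was the lowest. The mean was 0.34 ± 0.13 (SD, n = 7), a 1.26-fold difference with a 95% interval on the log2 scale of 0.21 to 0.47 (adjusted p = 0.00908), and the rank from the top was 344. The change was small beside that of Vha36-2 and even between arrays. Adjusted p ran from 0.00715 to 0.0401 when each array was left out in turn. The means were 0.40 over the Cy3 arrays and 0.26 over the Cy5 arrays (dye term, adjusted p = 0.453). Tested against a minimum difference of 1.1-fold in place of 0, which 1.8% of all features passed, Vha36-2 passed (adjusted p = 0.0146) and Vha100-2 did not (adjusted p = 0.113).

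**Figure D1:**
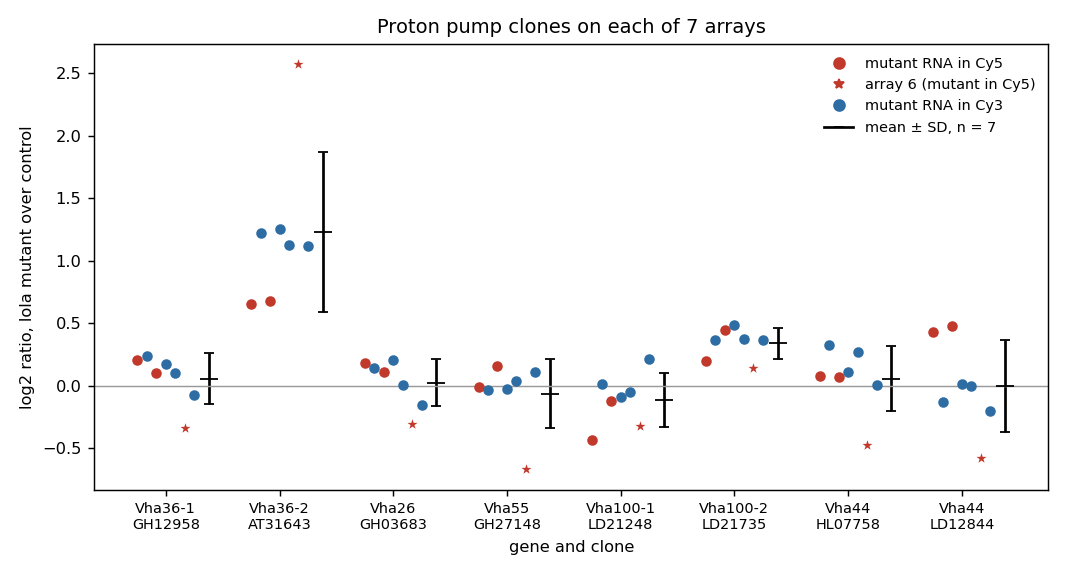
Log2 ratio of mutant over control (vertical axis) for each of the 8 clones of the named genes (horizontal axis), with 1 point per array, colored by the dye of the mutant RNA, a star for array 6 and a black bar for the mean ± SD (n = 7). Vha36-2 lies between 0.66 and 2.57 and Vha100-2 between 0.14 and 0.48, while the other clones spread around 0 with array 6 at or near the bottom.

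The remaining V1 clones had means close to 0. Vha36-1 encodes the other measured form of subunit D. Its clone GH12958 had ratios of 0.20, 0.24, 0.10, 0.17, 0.10, -0.34 and -0.08 on arrays 1 to 7, with a mean of 0.06 ± 0.20 (adjusted p = 0.750). The values were on both sides of 0 and none reached those of Vha36-2. Vha26 encodes subunit E, part of the peripheral stalks that hold the V1 head in place, and its clone GH03683 ran from -0.31 to 0.20 with a mean of 0.02 ± 0.19 (adjusted p = 0.904). Vha55, the nucleotide-binding subunit B of the head, ran from -0.67 to 0.16 with a mean of -0.06 ± 0.28 (clone GH27148, adjusted p = 0.779).

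Vha44 encodes subunit C, which links the stalks to V0 and leaves the complex when V1 and V0 come apart. It was the only named gene with more than 1 clone of its own. Clone HL07758 had ratios of 0.08, 0.33, 0.07, 0.11, 0.27, -0.48 and 0.01, with a mean of 0.06 ± 0.26 (adjusted p = 0.804). Clone LD12844 had ratios of 0.43, -0.13, 0.48, 0.01, 0.00, -0.58 and -0.20, with a mean of 0.00 ± 0.37 (adjusted p = 0.998). The clones were both lowest on array 6 but differed on others: LD12844 was above HL07758 on arrays 1 and 3, and HL07758 was above LD12844 on the other 5. Within arrays HL07758 minus LD12844 was 0.05 ± 0.32, from -0.41 to 0.46. Without array 6, LD12844 averaged 0.46 over the 2 Cy5 arrays and -0.08 over the 4 Cy3 arrays (dye term, adjusted p = 0.00829), and HL07758 averaged 0.07 and 0.18 (adjusted p = 0.563).

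In the V0 sector, Vha100-1 encodes the form of subunit a that is known for its role in synaptic vesicles of neurons. Its clone LD21248 had ratios of -0.44, 0.02, -0.13, -0.09, -0.05, -0.33 and 0.22 on arrays 1 to 7. The mutant was lower on 5 of the 7 arrays, and the mean of -0.12 ± 0.22 (adjusted p = 0.474) lay within that spread. Vha16-1 encodes the proteolipid subunit c, the ring that turns in the membrane. The clone it shares with CRMP, GH09168_ReAmp, ran from -0.46 on array 6 to 0.27 on array 2, with a mean of 0.01 ± 0.23 (adjusted p = 0.960), and cannot be assigned to either gene.

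For the 6 member features that did not pass the test, means ran from -0.12 to 0.06 and adjusted p from 0.473 upward. Their 95% intervals on the log2 scale lay within -0.29 to 0.27. The limits farthest from 0 were 1.22-fold lower (Vha100-1) and 1.20-fold higher (Vha44, LD12844) in the mutant. By their means the order of the clones was Vha36-2, Vha100-2, Vha36-1, Vha44 (HL07758), Vha26, Vha44 (LD12844), Vha55 and Vha100-1, and among the last 6 the steps from one mean to the next were smaller than the SD of either clone.

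The forms of one subunit can be set beside each other on the same array, where both were measured in the same RNA pair. Vha36-2 minus Vha36-1 was positive on 7 of 7 arrays, from 0.45 to 2.92, with a mean of 1.17 ± 0.82, and 0.88 without array 6. Vha100-2 minus Vha100-1 was positive on 7 of 7 arrays, from 0.15 to 0.63, with a mean of 0.45 ± 0.17. Another form of subunit a, Vha100-4, was closer to Vha100-2: the difference was 0.16 ± 0.17 and positive on 6 of 7 arrays. These differences use the ratios by which the genes were chosen and are given as a description, without a test. They compare changes between genes and not their levels.

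The pump genes that were not among the 10 were taken by name: 26 other genes for subunits, accessory proteins and assembly factors, of which 12 had a clone of their own and 14 did not. Of these 12 features 0 passed the test by limma, against 6.11% of all features, and 1 had an unadjusted p under 0.05. That clone was Vha100-4, the highest of the list, at 0.18 ± 0.18 (adjusted p = 0.187), higher in the mutant on 6 of 7 arrays. The lowest was Vha13, which encodes subunit G of the peripheral stalks, at -0.18 ± 0.39 (adjusted p = 0.494). Means of all 12 thus lay between -0.18 and 0.18, with 95% intervals within -0.46 to 0.35. With array weights, which let arrays that scatter more count less, 3 of the 12 passed, beside 20.1% of all features: VhaSFD (subunit H) and VhaAC45 were higher and VhaAC39-2 (subunit d) was lower.

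By sector, the 8 measured V1 genes had a median of 0.03 and the 8 V0 genes one of 0.01. The 3 accessory and assembly genes, VhaAC45, ATP6AP2 and Rbcn-3B, had means of 0.09 to 0.14. Over all 19 measured pump genes the median was 0.04, and 0.11 without array 6, and 19 of 20 features had 95% intervals within 0.5 of 0 on the log2 scale. The exception was Vha36-2.

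**Figure D2:**
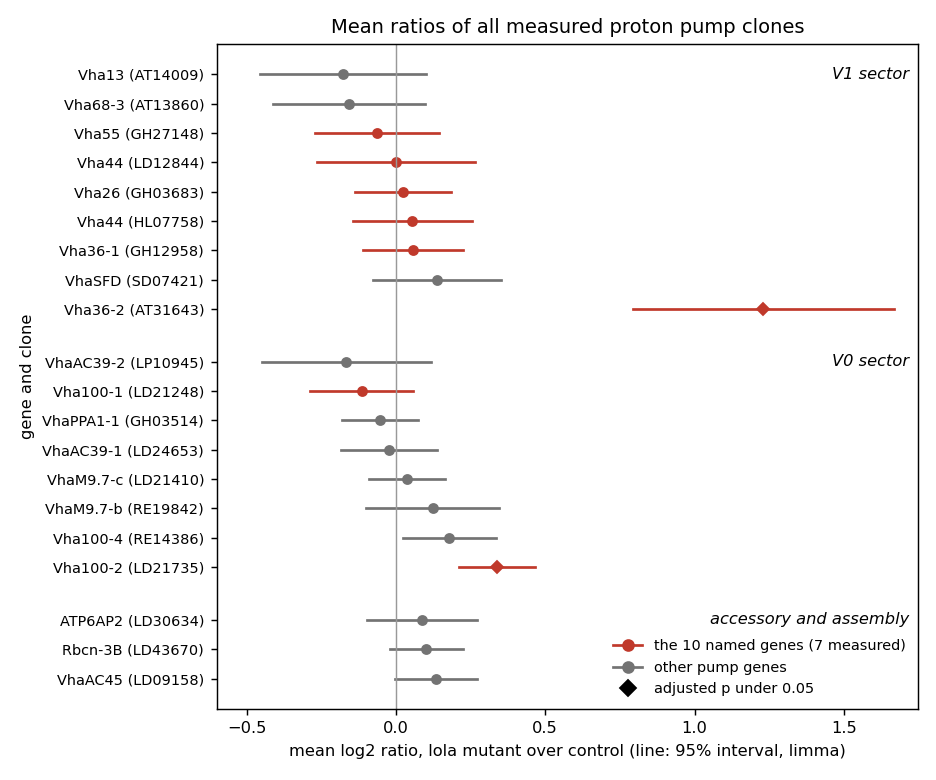
Mean log2 ratio of mutant over control (horizontal axis, lines give 95% intervals, n = 7 arrays) for the 20 clones of 19 measured pump genes (vertical axis), grouped by sector, with the named genes in red. Only the intervals of Vha36-2, Vha100-2 and Vha100-4 leave out 0, and only Vha36-2 and Vha100-2, drawn as diamonds, passed the test across all features.

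Array 6 was the lowest array for 6 of the 8 member features, all but Vha36-2 and Vha100-1, and lay below 0 for 6 of 8. Over all features array 6 was the lowest in 22.6% and below 0 in 52.4%. The median of the named genes on it was -0.33, against 0.10 to 0.20 on the other 6 arrays, which do not overlap with it. Of the other pump features, 8 of 12 were lowest on array 6, where their median was -0.19. Vha36-2 thus stood highest on the array where most of the pump clones stood lowest.

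Array 6 was low for some other lists and not for all, and for some this depended on taking the mean or the median over genes. Genes of the mitochondrial ATP synthase, a related rotary enzyme that makes ATP, had a median of -0.49 there, with 9 of 10 genes below 0, and -0.19 to 0.35 on the others. Lysosome genes had a median of -0.01, within the range of -0.10 to 0.06 on the others. Their mean of -0.08 lay just below the -0.07 to 0.02 of the others. Marker genes of muscle had a mean of -1.52 on array 6 (5 of 10 genes measured), against -0.42 to 0.73 on the other arrays. Markers of trachea had a mean of -1.13 (4 of 7) and those of cuticle and epidermis -0.78 (6 of 7). On array 6, 3 of the 4 tracheal genes were below 0 and salr was at 0.37, while all 6 cuticle genes were below 0. Fat body markers (5 of 5) had a mean of -0.53 and midgut markers (4 of 5) one of -0.34, both below the lowest mean of the other arrays. Only 3 of the 5 fat body genes and 2 of the 4 midgut genes were below 0 there, against 52.0% of all genes. Glial markers (6 of 7), at a mean of -0.28, were close to the lowest of the other arrays. Haemocyte markers (5 of 7), at a mean of 0.13, lay within their range of 0.10 to 0.29. By median over genes, midgut markers were at -0.30 on array 6, within the -0.31 to 0.23 of the others. Haemocyte markers by median were at 0.07, below the 0.11 to 0.39 of the others. Of the neuronal markers only nSyb was measured, at -1.14 on array 6 and -0.50 to 0.02 elsewhere, and of the Malpighian tubule and hindgut markers only Kr, at -0.29. Over all 7 arrays, 3 of the 5 haemocyte marker genes had a clone that rose, in a fit that called 6.11% of all features. They were Pxn at 0.53 ± 0.12 (clone GH18946, adjusted p = 0.00111), PPO1 at 0.40 and PPO2 at 0.26. The other Pxn clone, SD07234, was not called, at 0.18 ± 0.21 (adjusted p = 0.215). NimC1 at -0.09 and srp at 0.08 were not called either. Of the glial markers 2 of 6 fell, Gs2 at -0.57 and alrm at -0.37, while 3 of the 6 had means above 0, the highest repo at 0.06. Of the fat body markers 2 of 5 fell, Npc2a at -0.85 and Lsd-1 at -0.45, and 0 of the 5 had a mean above 0. In trachea salr rose, at 0.25, and 3 of the 4 genes had means above 0, while serp was lowest, at -0.49. Pu of the cuticle list fell, at -0.79, and 1 of its 6 genes had a mean above 0, knk at 0.20. In midgut lambdaTry fell, at -0.36, while 2 of the 4 genes had means above 0, the highest mex1 at 0.55. The ratios of serp, knk and mex1 were not called. None of the muscle, neuronal or Malpighian tubule and hindgut markers passed by limma, where only nSyb and Kr had an unadjusted p under 0.05. These marker genes were named after their values were seen. The part of these marker differences in the ratios of the pump genes was not tested. Vha36-2 and Vha100-2 passed without array 6 as well, but that fit does not separate them from marker differences that ran over all arrays.

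**Figure D3:**
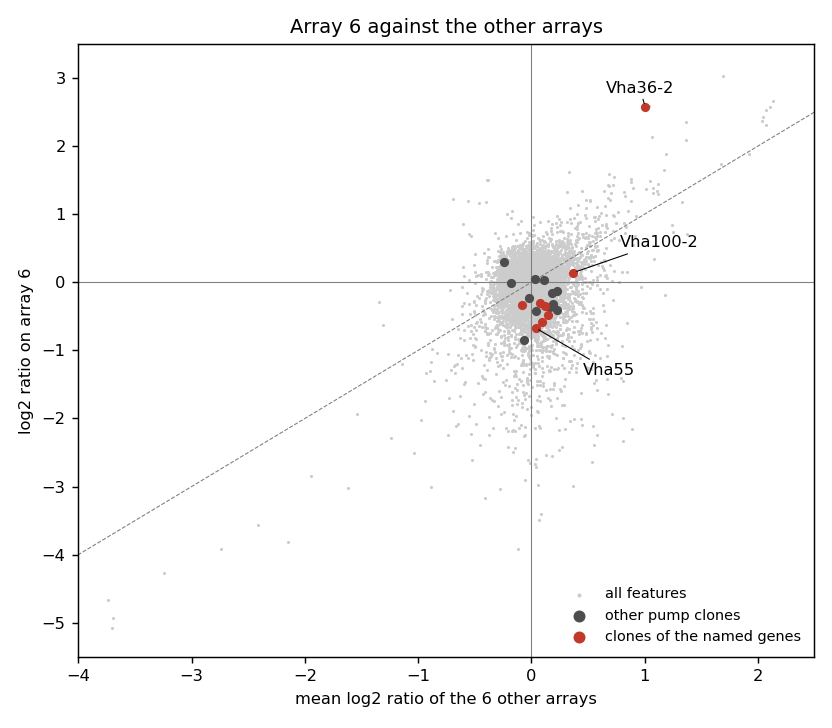
Log2 ratio on array 6 (vertical axis) against the mean log2 ratio of the other 6 arrays (horizontal axis) for all 10227 features (gray), other pump clones (black) and clones of the named genes (red), with a dashed line of equal values. Vha36-2 lies above the line at 2.57, while 6 of the 8 clones of the named genes lie below 0 on array 6.

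**Figure D4:**
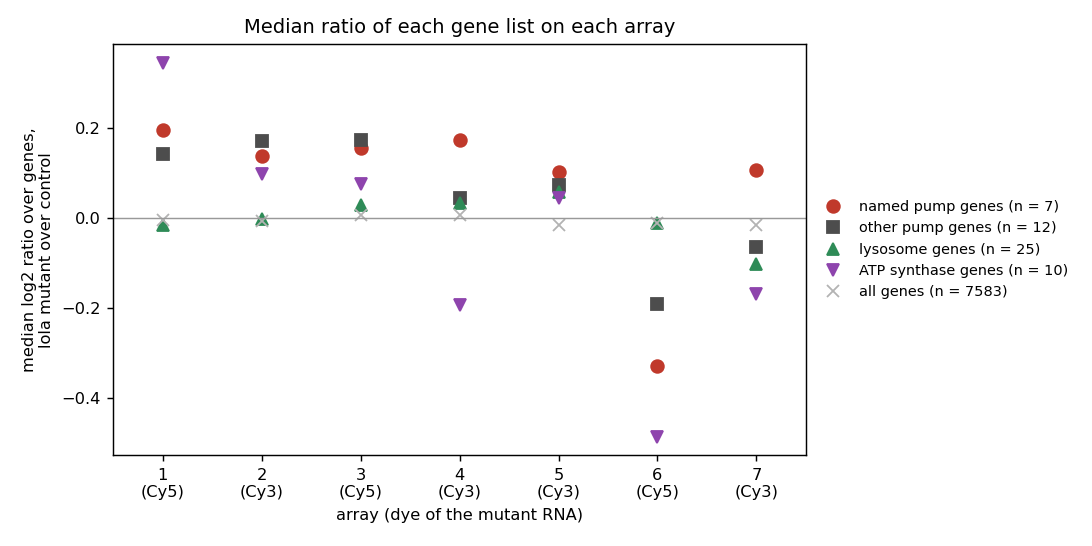
Median log2 ratio over the genes of each list (vertical axis) on each array (horizontal axis, with the dye of the mutant RNA in parentheses). The named pump genes lie between 0.10 and 0.20 on 6 arrays and at -0.33 on array 6, where the ATP synthase genes fall to -0.49 and the lysosome genes stay at -0.01.

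With all 7 arrays, 0 of 8 member features and 2 of the 12 other pump features had a dye term with an adjusted p under 0.05. The share over all features was 11.5%. VhaAC39-2, which encodes a form of subunit d, averaged 0.24 over the Cy5 arrays and -0.47 over the Cy3 arrays (adjusted p = 0.00989), with no overlap between the orientations. Vha68-3, a form of the catalytic subunit A, averaged 0.16 and -0.40 (adjusted p = 0.0399). For these genes the mean over arrays holds values on both sides of 0 and depends on how many arrays of each orientation entered. Clone names that begin with AT come from an adult testis library, and Vha36-2, Vha68-3 and Vha13 were measured by such clones. The 939 AT features had medians of 0.07 to 0.08 on the 3 Cy5 arrays and -0.14 to -0.06 on the 4 Cy3 arrays. Of the AT features 2.66% were called. The ratios of Vha36-2 lay above these medians on every array.

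Spots of double-stranded cDNA do not tell strands apart, and the mutant second chromosome was a recombinant that carries the lola allele, so the genes next to the called ones were looked up. Vha36-2 lies on arm 2R, as lola does. None of the 3 nearest protein-coding genes on either side overlaps it, and other kinds of gene were not looked up. Next to it CG13168 was lower in the mutant, at -0.22 ± 0.10 (clone AT27289, adjusted p = 0.0396), while Cam on its other side had no feature. Among features of a single gene on 2R, 5.93% were called, 76 higher and 28 lower. On 2L 6.92% were called, 65 higher and 46 lower, and over all features 6.11%, 367 higher and 258 lower. Vha100-2 lies on arm 3R beside Vha100-4 and overlaps Vti1b, which had a mean of -0.03 ± 0.09 (clone GH24605, adjusted p = 0.805). Vha44 overlaps Hmgs, which averaged 0.18 ± 0.48 (clone LD26976, adjusted p = 0.556). A single clone stands for each of Vha36-2 and Vha100-2, so neither has a second probe beside it, and the identity of the clones was not checked here.

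Genes whose ratios varied over the 7 arrays most like those of Vha36-2 were sought among 8578 features with 1 gene symbol. The 5 highest Pearson correlations, from 0.956 to 0.969, were those of CG14329, CG14014, CG18745, CG3942 and CG15625. Their values on array 6 were 0.49 to 0.70, against -0.20 to 0.25 on the other arrays, so all 5 were highest on array 6, as Vha36-2 was. Without it the correlations ran from 0.657 to 0.919 over 6 arrays. None of the 5 passed the test, with adjusted p from 0.454 to 0.997. The arrays are shared by all features and the 5 were picked as extremes, so these correlations are a description.

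Lists of related organelle genes were counted in the same fit. Of 25 measured lysosome genes with 28 features, 1 rose and 1 fell. Over all features 3.59% were called higher and 2.52% lower. LManII, a lysosomal alpha-mannosidase gene, was the highest at 0.30 ± 0.16 (adjusted p = 0.0269), and Npc2a, for a sterol-binding protein of the lysosome, was the lowest at -0.85 ± 0.60 (adjusted p = 0.0240). Npc2a is also among the fat body markers above. The median of the list was 0.02. Of 14 features for 10 ATP synthase genes 0 passed by limma, and 1 had an unadjusted p under 0.05. ATPsynbeta was the highest, at 0.12 (adjusted p = 0.233), and ATPsyndelta the lowest, at -0.18. The median was -0.05.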

How the data were processed

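Spots were quantified by the authors in GenePix and normalized in limma, with no background correction, print-tip loess within and scaling between arrays; the version is not given in the sources used here. The deposited values are log2 ratios, with a column for each array, and none of another sample was present. Of 10376 features, 149 control spots were left out. The columns already ran in 1 direction, since 62 of 70 features past 1 in mean absolute ratio kept their sign between dye orientations. Signs were then turned to mutant over control. Were the deposited ratios of arrays 1, 3 and 6 Cy5 over Cy3, limma's usual form, they would be mutant over control before turning, so the direction is likely and not certain.

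Ratios were fitted with lmFit and eBayes in limma 3.58.1 (R 4.3.3) as means over 7 arrays, with Benjamini-Hochberg adjustment over 10227 features, a threshold of 0.05 and no minimum fold. Precision is set by the 7 arrays, and the median 95% half-width of the member features was 0.19. The fit was tested on simulated data. Alternatives were each array left out, other scalings, a dye term, array weights, 1 dye orientation, a minimum fold and gene averages.

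Members and lists were chosen with earlier results of these data known. All members are named, as are the called, highest and lowest features of the other pump, lysosome and ATP synthase lists and the 5 features most like Vha36-2. Genes were named from the platform annotation and a RefSeq table (Release 6 plus ISO1 MT), used for names and gene order only. No sequences or coordinates of clones are given.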

Additional observations from a re-analysis of the deposited data

Results flagged for a closer look

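Among the 20 pump features, 4 had 1 array so far from the rest that its gap to the nearest array took more of their whole range than Dixon's 95% limit for 7 values allows, and in all 4 it was array 6. Vha36-2 was high there, at 2.57 (gap 0.69 of the range). Vha55 was low at -0.67 (0.767), Vha44 clone HL07758 at -0.48 (0.601) and VhaAC39-1, for a form of subunit d, at -0.42 (0.627). Chance puts about 1 in 20 sets of values beyond this limit, and 6.21% of all features here had such an array. Array 6 is shared by all features, so the 4 are not independent of each other. It also had the largest SD over all features, at 0.43, but not the widest interquartile range, at 0.343 against 0.35 on array 7. No cause was tested.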

How the results depend on the processing

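Of the 10 named genes, 2 features passed in the fit with all arrays, and 2 passed on leaving out each array, after centering or rescaling arrays, with a dye term, with array weights, with gene averages and on the 4 Cy3 arrays alone. With a minimum fold of 1.1 only 1 passed, Vha36-2. With the 3 Cy5 arrays 0 passed, as did 0 of all 10227 features, so that setting made no call anywhere. Among the other pump genes 0 passed with all arrays, and 3 passed with array weights (VhaSFD and VhaAC45 higher, VhaAC39-2 lower), where 20.1% of all features were called. On the 4 Cy3 arrays 3 passed as well (VhaAC45 higher, Vha68-3 and VhaAC39-2 lower), where the share was 24.5%. Dye terms among the named genes went from 0 with all arrays to between 0 and 2 on leaving out 1 array, with Vha36-2 and Vha44 (LD12844) called without array 6. Over all features the share was 11.5% with all arrays and 22.7% without array 6. The median of the named genes ran from -0.001 to 0.12 on leaving out 1 array, with the highest value without array 6.

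Of 120 pairs of a member feature and a setting, 104 kept their direction and side of the threshold and 3 lost the call. Direction turned in 13, all of features that passed in no setting, with values between -0.11 and 0.04 and adjusted p of at least 0.4. On the Cy5 arrays Vha36-1 was -0.013, Vha26 -0.006 and Vha44 (HL07758) -0.11. On the Cy3 arrays Vha55 was 0.0201, Vha100-1 0.0214 and Vha44 (LD12844) -0.0806, and with array weights the last was -0.0242. On leaving out 1 array, Vha26 ran from -0.0051 to 0.0797, Vha55 from -0.10 to 0.037 and Vha44 (LD12844) from -0.079 to 0.098. The cause was not tested. The count over all features was 625, and it was 246, 277 and 288 without arrays 2, 4 and 5, 184 with the minimum fold, 2057 with array weights and 2501 on the Cy3 arrays. Taking out array 6 was chosen for closer description after seeing the data. The fit is already paired, because each array sets a mutant sample against its control. With 1 group of arrays no further pairing was possible. Features dim on the array could not be told from bright ones.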
